A study of Mus musculus with 6 samples.

Results

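The muscle acetylcholine receptor and neuromuscular junction genes described here were 10 genes taken by symbol from a table of 43074 gene symbols: the receptor subunit genes Chrna1, Chrnb1, Chrnd, Chrng and Chrne, and the clustering genes Agrn, Lrp4, Musk, Dok7 and Rapsn. All 10 symbols were in the table, and 9 passed the filter on low counts that left 17433 genes for testing. The member that did not pass was Chrne.

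The libraries came from C2C12, a mouse myoblast line labelled wild type that fuses into multinucleated myotubes when serum is changed. All cells were grown in medium with 10% fetal bovine serum, and day 0 cells were untreated. The other cells spent 4 days in medium with 5% horse serum and either DMSO, the vehicle, or 1 mM 4-phenylbutyric acid (4-PBA), a compound that inhibits histone deacetylases and acts as a chemical chaperone. There were 2 libraries in each of 3 groups, all of batch 1, and the labels do not say that replicates were separate cultures, so p-values measure the spread between these libraries. The labels name 1 cell line and no nerve cells.

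Total counts lay between 47908926 and 74697397 per library. Myotube markers (Myh3, Ckm, Mymk, Tnnt3, Actn2 and Acta1) summed to between 78.2 and 83.0 CPM (counts scaled to a common library size with TMM factors) at day 0 and between 4509 and 4891 CPM at day 4. The cells of the presynaptic side left little trace in the libraries. Of 9 motor neuron markers, Slc18a3 and Mnx1, which mark cholinergic terminals and motor neuron identity, had 0 counts in every library, and Chat, the acetylcholine-synthesising enzyme, had at most 1. Of 8 Schwann cell markers, Sox10 and Foxd3 had 0 counts in every library. Stmn2 and Tubb3, which are not restricted to neurons, held nearly all of the motor neuron sum of 159 to 242 CPM, and the myelin gene Pmp22 held most of the Schwann cell sum of 57.5 to 90.6 CPM.

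Skeletal muscle senses acetylcholine through a receptor channel built from alpha, beta and delta subunits together with either gamma, in embryonic and denervated muscle, or epsilon, in innervated adult muscle. Chrna1, Chrnb1, Chrnd, Chrng and Chrne encode these subunits in that order. Clustering under the nerve terminal depends on agrin (Agrn), which binds the receptor Lrp4 and through it activates the kinase MuSK (Musk). The adaptor Dok7 binds and activates MuSK inside the cell, and rapsyn (Rapsn) holds the receptors together. Subunit genes are known targets of myogenic factors such as myogenin, which bind the sequence CANNTG, the E-box, and genes active at the synapse are known to use the sequence CCGGAA, the N-box.

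Promoters are shown for the gene that moved most (Chrng), the most abundant subunit gene (Chrna1), a subunit gene not called between 4-PBA and DMSO (Chrnb1) and the adult subunit gene, which was barely detected (Chrne). They come from RefSeq on build GRCm38.p6, whereas the counts were made on GRCm39, per the submitters' processing notes. RefSeq windows of 300 bases, from 250 before to 50 after the gene start, were matched for 7 of the 10 members. Capitals mark CANNTG and CCGGAA, searched on both strands.
Chrng promoter, chr1:87205561-87205860, plus strand: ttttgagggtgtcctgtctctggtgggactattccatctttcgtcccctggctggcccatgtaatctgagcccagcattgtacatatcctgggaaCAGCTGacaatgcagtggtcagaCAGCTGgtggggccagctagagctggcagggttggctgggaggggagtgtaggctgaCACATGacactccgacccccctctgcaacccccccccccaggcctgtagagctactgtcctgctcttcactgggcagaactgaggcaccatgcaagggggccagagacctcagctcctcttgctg
Chrna1 promoter, chr2:73580289-73580588, minus strand: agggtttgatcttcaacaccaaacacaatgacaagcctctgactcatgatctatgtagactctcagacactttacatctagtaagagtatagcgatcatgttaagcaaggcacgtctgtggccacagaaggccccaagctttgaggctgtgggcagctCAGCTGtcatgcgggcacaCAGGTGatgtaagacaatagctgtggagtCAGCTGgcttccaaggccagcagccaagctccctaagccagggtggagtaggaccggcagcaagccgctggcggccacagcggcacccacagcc
Chrnb1 promoter, chr11:69795888-69796187, minus strand: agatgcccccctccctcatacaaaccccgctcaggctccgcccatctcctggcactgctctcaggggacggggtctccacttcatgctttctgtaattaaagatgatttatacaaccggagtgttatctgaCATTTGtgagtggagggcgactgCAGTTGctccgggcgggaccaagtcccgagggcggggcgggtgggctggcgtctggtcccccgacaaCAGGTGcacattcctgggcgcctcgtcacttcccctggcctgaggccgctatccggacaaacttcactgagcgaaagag
Chrne promoter, chr11:70619145-70619444, minus strand: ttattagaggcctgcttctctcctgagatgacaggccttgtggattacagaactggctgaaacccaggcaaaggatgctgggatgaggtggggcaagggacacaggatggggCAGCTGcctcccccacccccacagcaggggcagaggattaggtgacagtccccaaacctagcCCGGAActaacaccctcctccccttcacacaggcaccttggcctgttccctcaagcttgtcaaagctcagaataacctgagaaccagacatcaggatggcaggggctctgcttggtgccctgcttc

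In these windows CANNTG occurred 3 times in Chrng, 3 times in Chrna1, 3 times in Chrnb1 and once in Chrne. The core CAGCTG, which is one form of CANNTG and is counted in it, began at positions -155 and -132 from the start of Chrng and at -92 and -44 from that of Chrna1. It was found once in Chrne, at -138, and once in Musk, at -68, and these letters were not in the window of Chrnb1. Of 32851 RefSeq windows of the same length, 72.3% held CANNTG at least once, 17.6% held it 3 times or more, 16.3% held CAGCTG and 1.90% held CAGCTG at least 2 times. Among the 7 members with a window, CCGGAA was found in Chrne alone, at -76, and 14.9% of all windows held it. Chrnd, Lrp4 and Rapsn had no window, so none of these sequences was searched for in them. These matches describe letters and do not show that a factor binds.

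**Figure D1:**
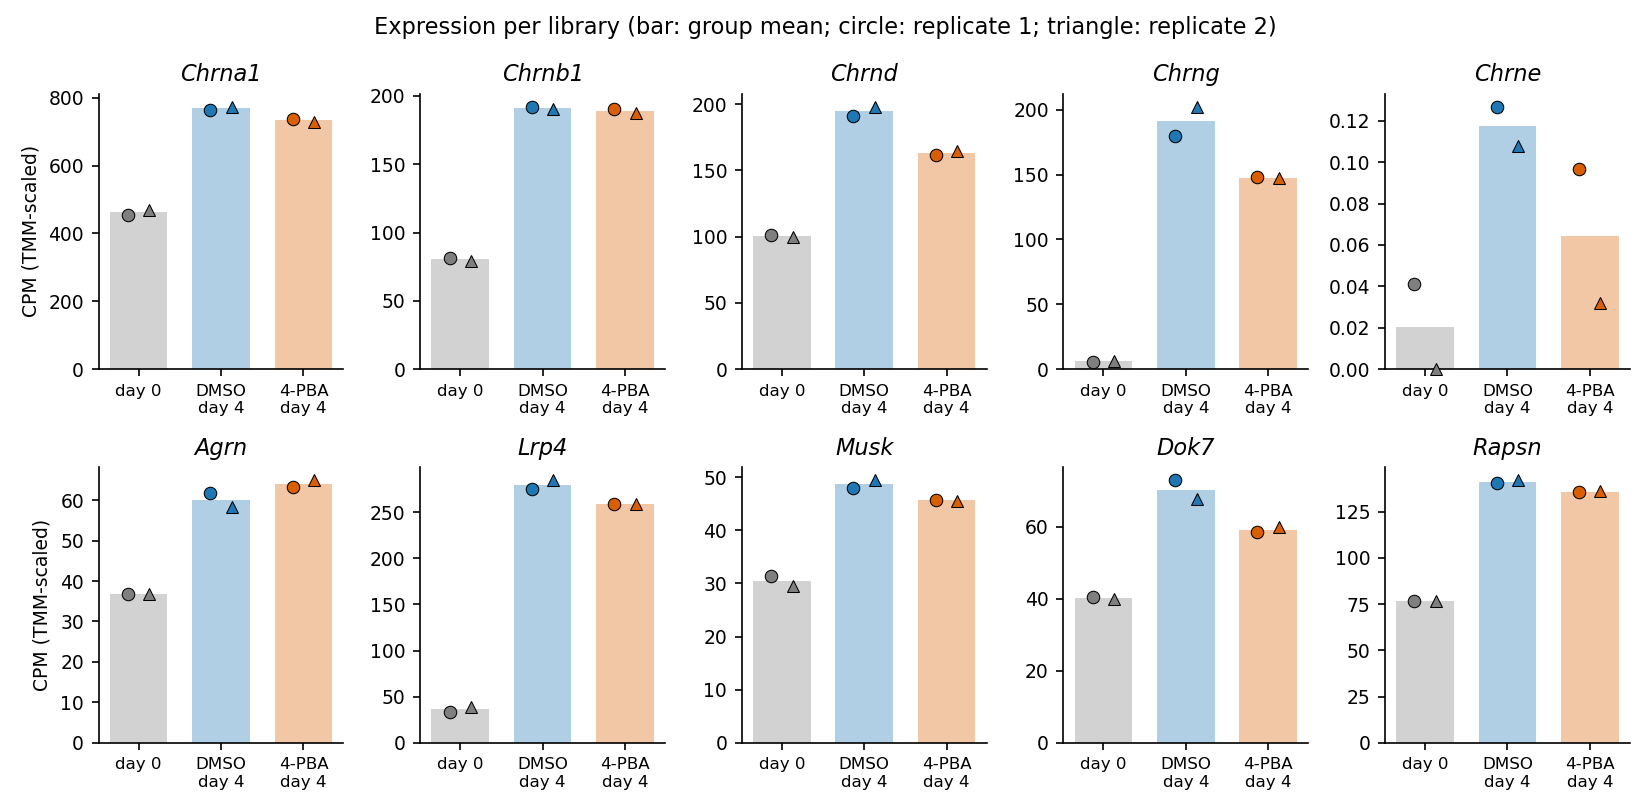
Expression of the 10 members in CPM (linear axes from 0, each with its own scale) in the 6 libraries; bars are means of 2 libraries and symbols are replicates 1 and 2. Every member but Chrne was higher in all 4 day 4 libraries than in both day 0 libraries, and Chrng rose from about 6.04 to 191 CPM under DMSO and 148 CPM under 4-PBA.

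Differentiation under DMSO raised all 9 tested members, most of all the embryonic subunit gene Chrng, and left the adult subunit gene Chrne at a handful of reads. edgeR's quasi-likelihood test called 9 of 9 tested members higher than at day 0, with no overlap between the groups' libraries. In the same comparison it called 66.3% of all tested genes, which were 33.8% higher and 32.6% lower, and 81.9% of tested genes did not overlap between the groups, 42.0% higher and 39.9% lower. The members' log2 fold changes ranged from 0.68 to 4.97 with a median of 0.88, against a median of 0.023 over all tested genes. In bulk RNA, more cells of a type and more RNA per cell cannot be told apart.

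Chrng, the embryonic subunit gene, had 5.78 and 6.30 CPM at day 0, 179 and 202 CPM under DMSO and 148 and 147 CPM under 4-PBA. The DMSO libraries were the highest and the furthest apart, and no groups overlapped. With DMSO the gene was 31.4-fold higher than at day 0 (log2 fold change 4.97, SE 0.0617, adjusted p 2.97e-25).

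Chrna1 encodes the subunit that carries the main acetylcholine binding surface. It stood at 455 and 469 CPM at day 0, 764 and 774 CPM under DMSO, and 738 and 727 CPM under 4-PBA, so that it was already abundant in undifferentiated cells. Its rise under DMSO was 1.66-fold (log2 fold change 0.73, SE 0.0284, adjusted p 2.75e-22).

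Chrnb1, the beta subunit gene, had 81.5 and 79.5 CPM at day 0, 192 and 190.4 CPM under DMSO, and 190.5 and 187 CPM under 4-PBA. Its DMSO and 4-PBA libraries overlapped, while both lay well above day 0. The change under DMSO was 2.38-fold (log2 fold change 1.25, SE 0.0344, adjusted p 1.08e-26).

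Chrnd, the delta subunit gene, had 101 and 99.7 CPM at day 0, 191 and 198 CPM under DMSO, and 162 and 165 CPM under 4-PBA. The 4-PBA libraries lay between the other groups without overlap. With DMSO it was 1.94-fold higher than at day 0 (log2 fold change 0.95, SE 0.0343, adjusted p 3.08e-23). Chrnd and Chrng are neighbours on mouse chromosome 1, with no annotated gene between them in GENCODE M21.

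Chrne, the adult subunit gene, had 2 and 0 counts in the day 0 libraries, 8 and 8 under DMSO, and 6 and 2 under 4-PBA. These are at most 0.127 CPM, and 3 counts correspond to between 0.0404 and 0.0617 CPM in these libraries. The DMSO libraries lay above both day 0 libraries, while the 4-PBA libraries overlapped those of day 0. The level of Chrne was not tested, since it did not pass the filter on low counts.

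Chrne was therefore a minute part of the gamma and epsilon transcripts. Per kb of exon, it made up 0.174% and 0.131% of Chrne plus Chrng under DMSO, and 0.160% and 0.0539% under 4-PBA. At day 0, where Chrng itself was low, the shares were 1.72% and 0%. As a share of counts, which is not scaled by length, Chrne made up 0.0706% and 0.0533% under DMSO and 0.0652% and 0.0219% under 4-PBA. The exact (Clopper-Pearson) 95% intervals of these count shares reached 0.139% and 0.105% under DMSO and 0.142% and 0.0790% under 4-PBA. They do not bound the shares per kb. At day 0 the interval was 0.0857% to 2.53% in replicate 1 and reached 0.831% in replicate 2, where none of 442 reads came from Chrne (3 counts would be 0.679%). Intervals and limits cover counting error only. An exact two-sided permutation test gave p = 1 for DMSO against day 0, 1 for 4-PBA against day 0 and 0.667 for 4-PBA against DMSO, and with 2 libraries against 2 it cannot go below 0.333.

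**Figure D2:**
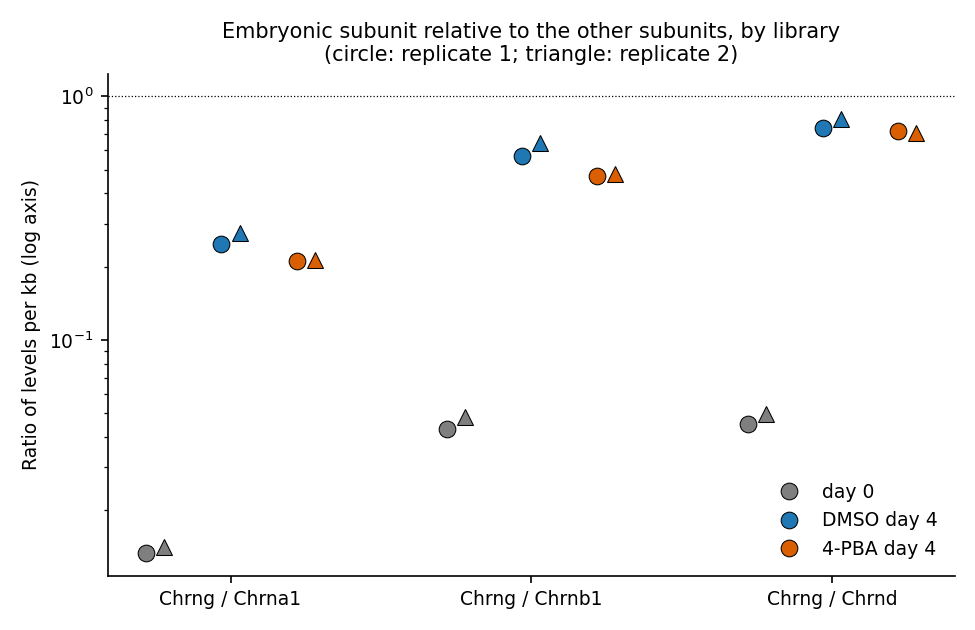
Level of Chrng divided by that of Chrna1, Chrnb1 or Chrnd in the same library, each per kb of exon (log axis), for 2 libraries per group; the dotted line marks equal levels. Day 0 libraries lie between 0.0134 and 0.0499, DMSO libraries between 0.247 and 0.807, and the 4-PBA libraries below the DMSO libraries in each ratio.

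The rise of Chrng brought its level nearer to those of its partner subunit genes. Chrng ended closest to Chrnd and stayed well below Chrna1. Per kb, Chrng was 0.0452 and 0.0499 times the level of Chrnd in the day 0 libraries and 0.742 and 0.807 times under DMSO. Relative to Chrnb1 it went from 0.0431 and 0.0482 to 0.568 and 0.646, and relative to Chrna1 from 0.0134 and 0.0141 to 0.247 and 0.276. Chrna1 itself stayed the most abundant member per kb in every group, at 105 ± 2.31 CPM per kb (SD, n = 2) at day 0, 175 ± 1.47 under DMSO and 167 ± 1.72 under 4-PBA.

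Among the clustering genes, Lrp4, the agrin receptor, rose most. It had 33.7 and 38.7 CPM at day 0, 275 and 285 CPM under DMSO, and 259 and 259 CPM under 4-PBA. Every day 4 library was far above day 0, and the 4-PBA libraries lay just under those under DMSO. The rise under DMSO was 7.69-fold (log2 fold change 2.94, SE 0.0473, adjusted p 3.10e-21).

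Musk, the kinase that Lrp4 activates, had 31.4 and 29.5 CPM at day 0, 48.0 and 49.4 CPM under DMSO, and 45.8 and 45.5 CPM under 4-PBA. It was 1.60-fold higher under DMSO than at day 0 (log2 fold change 0.68, SE 0.052, adjusted p 6.46e-14). The groups did not overlap. Per kb, Lrp4 was 0.386 and 0.472 times the level of Musk in the day 0 libraries and 2.06 and 2.07 times under DMSO, so the order of the pair turned over between day 0 and day 4. With 4-PBA this ratio was 2.04 and 2.05.

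Dok7, the intracellular activator of MuSK, had 40.6 and 39.9 CPM at day 0, 72.9 and 67.6 CPM under DMSO, and 58.5 and 59.8 CPM under 4-PBA. It rose 1.75-fold under DMSO (log2 fold change 0.80, SE 0.0479, adjusted p 7.30e-17). The 4-PBA libraries lay between the day 0 and the DMSO libraries.

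Rapsn, the receptor scaffold, had 76.6 and 76.7 CPM at day 0, 141 and 142 CPM under DMSO, and 136 and 136 CPM under 4-PBA. Its rise under DMSO was 1.84-fold (log2 fold change 0.88, SE 0.0355, adjusted p 8.80e-22). Per kb its ratio to Chrna1 moved little, at 0.410 and 0.398 at day 0, 0.447 and 0.447 under DMSO, and 0.447 and 0.455 under 4-PBA. In GENCODE M21 its exons overlap Gm13778 on the opposite strand, and although the library kit keeps strand, whether counting used it is not given in the sources used here, so its values are uncertain to that extent.

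Agrn, the ligand, which muscle makes as well as nerve, had 36.7 and 36.9 CPM at day 0, 61.8 and 58.3 CPM under DMSO, and 63.2 and 64.9 CPM under 4-PBA. It rose 1.63-fold under DMSO (log2 fold change 0.71, SE 0.0481, adjusted p 3.14e-15). It was the one tested member whose 4-PBA libraries lay above the DMSO libraries. Counts per gene do not separate the neural splice form of agrin from the muscle form.

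Ordered by level per kb at day 0, the members ran Chrna1, Rapsn, Chrnb1, Chrnd, Dok7, Musk, Agrn, Lrp4, Chrng and Chrne. With DMSO, and in the same order under 4-PBA, they ran Chrna1, Rapsn, Chrnb1, Chrnd, Chrng, Lrp4, Dok7, Musk, Agrn and Chrne. No neighbours in these orders overlapped between their libraries when length was the union of all annotated exons. With the longest transcript as the length, which was tried after seeing the data, the close neighbours changed places: Lrp4 with Agrn at day 0, Rapsn with Chrnb1 at day 4 in both groups, and Chrnd with Chrng under DMSO. The order within these pairs is therefore not fixed by the data.

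After 4 days in 4-PBA the 9 tested members were likewise all called above day 0 without overlap. Of all tested genes 65.6% were called, 33.2% higher and 32.4% lower, and 81.8% did not overlap, 41.7% higher and 40.1% lower. This comparison shares the day 0 libraries with the DMSO comparison. Log2 fold changes ranged from 0.56 for Dok7 (SE 0.0484, adjusted p 2.07e-12) to 4.60 for Chrng (SE 0.0619, adjusted p 1.43e-24), with a median of 0.80. The rise of Chrng was 24.3-fold under 4-PBA, that of Lrp4 7.13-fold, that of Chrnb1 2.35-fold and that of Chrnd 1.63-fold. Chrna1 was 1.59-fold, Rapsn 1.77-fold, Agrn 1.74-fold, Musk 1.50-fold and Dok7 1.47-fold higher.

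Set directly against DMSO at day 4, the drug's effect on these levels was small. Chrng, Chrnd and Dok7 were lower under 4-PBA, by 15.8% to 22.7%, and no member was called higher. These 3 calls among 9 tested members stand against 4.90% of all tested genes called, 2.78% lower and 2.13% higher. Of the 6 members not called, 5 had estimates below 0, and the 9 log2 fold changes had a median of -0.095 against 0.0021 over all tested genes. The libraries of the groups did not overlap for 8 members, of which 7 were lower, while 45.5% of all tested genes did not overlap, 22.5% lower and 23.0% higher.

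**Figure D3:**
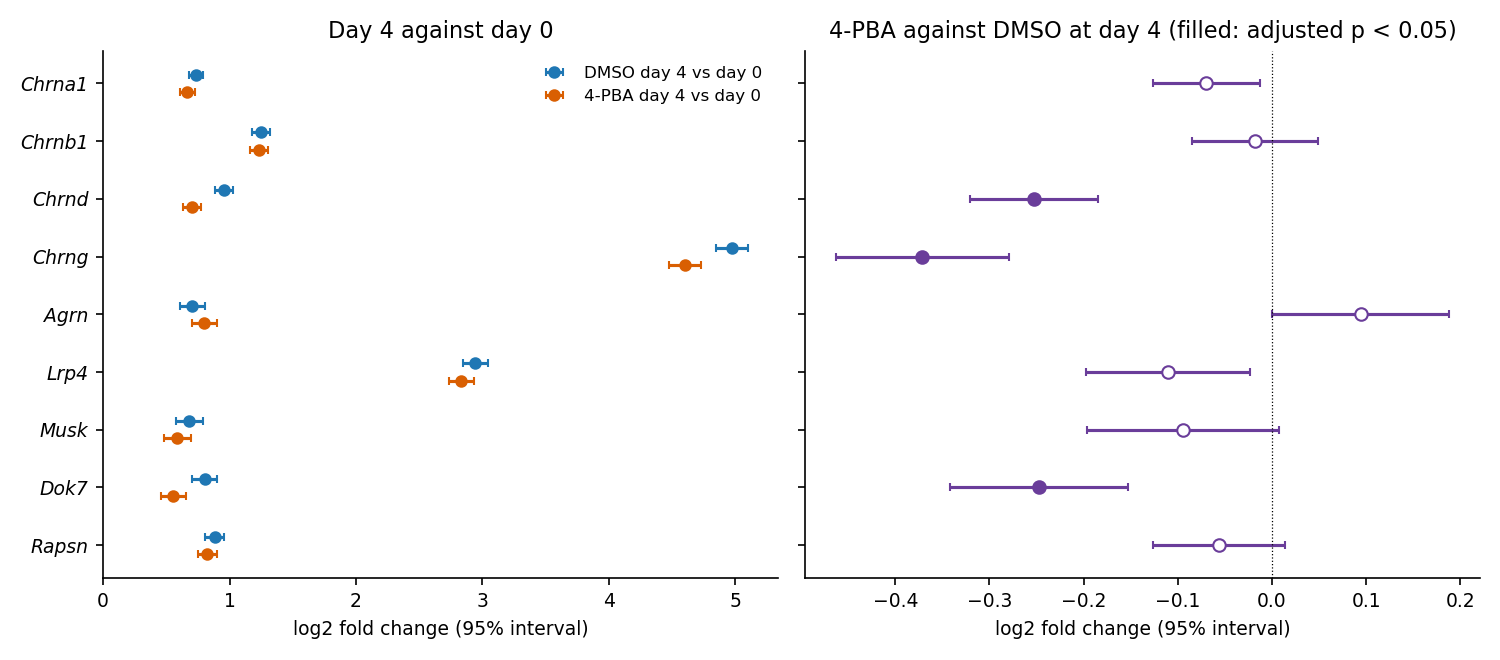
Log2 fold changes of the 9 tested members with 95% intervals (not adjusted for the number of genes) from edgeR; left, each day 4 group against day 0; right, 4-PBA against DMSO at day 4, with filled points for adjusted p under 0.05. Chrng lies at -0.37, Chrnd at -0.25 and Dok7 at -0.25, and the intervals of Chrnb1, Musk and Rapsn span 0.

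Chrng changed most with the drug. Its 4-PBA libraries, at 148 and 147 CPM, were below both DMSO libraries, a change of -22.7% (95% interval -27.5% to -17.6%, log2 fold change -0.37, SE 0.0441, adjusted p 1.82e-05). The log2 fold change ranged from -0.46 to -0.28 in the fits that each omitted 1 library.

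Chrnd changed by -16.1% (95% interval -19.9% to -12.0%, log2 fold change -0.25, SE 0.0335, adjusted p 6.42e-06). Dok7 changed by -15.8% (95% interval -21.1% to -10.1%, log2 fold change -0.25, SE 0.0465, adjusted p 7.36e-04). All 3 genes were called in each of the 15 alternative settings.

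The other subunit genes differed less. For Chrnb1 the change was -1.24% (95% interval -5.73% to 3.45%, adjusted p 0.861), and for Chrna1 it was -4.71% (-8.42% to -0.843%, adjusted p 0.176). Per kb, Chrng stood at 0.473 and 0.478 times the level of Chrnb1 under 4-PBA, below its 0.568 and 0.646 under DMSO. Its ratio to Chrna1 was 0.211 and 0.213 under 4-PBA, below 0.247 and 0.276, and its ratio to Chrnd was 0.723 and 0.706, below 0.742 and 0.807. None of these 3 ratios overlapped between groups, and each exact permutation test gave p = 0.333, the smallest it can give. No other test of these ratios was run.

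Among the clustering genes other than Dok7, none was called. Lrp4 changed by -7.35% (95% interval -12.8% to -1.57%, adjusted p 0.159), Musk by -6.37% (-12.8% to 0.491%, adjusted p 0.347) and Rapsn by -3.84% (-8.39% to 0.942%, adjusted p 0.440). Agrn differed by 6.75% (0.0174% to 13.9%, adjusted p 0.298). These intervals are for single genes and leave room for changes of the sizes they span. Without a filter on low counts Lrp4 was called lower (log2 fold change -0.11, adjusted p 0.0289, in a range over alternatives up to 0.479).

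Some markers of cell state also differed. The myotube markers summed to 4588 and 4891 CPM under DMSO and 4509 and 4616 CPM under 4-PBA, and the cycling myoblast markers (Mki67, Top2a, Ccnd1, Pax7, Myf5 and Ccnb1) to 525 and 461 CPM against 518 and 530 CPM. All 6 markers of each list had counts in every library, and both sums overlapped between the groups. Of the single myotube markers, the fusion gene Mymk (log2 fold change -0.17, SE 0.0393, adjusted p 0.0134) and the actin gene Acta1 (-0.094, SE 0.0282, adjusted p 0.0450) were called lower under 4-PBA in edgeR, and 5 of 6 were lower without overlap. Of the cycling markers the cyclin gene Ccnd1 was lower (-0.29, SE 0.0328, adjusted p 4.38e-07), and 4 of 6 were higher without overlap but not called. Beside these counts, 22.5% of all tested genes were lower and 23.0% higher without overlap, and 4.90% were called. Stmn2 (0.20, SE 0.0511, adjusted p 0.0171) and Pmp22 (0.35, SE 0.0416, adjusted p 1.15e-06) were higher, and the Schwann cell sum went from 73.1 and 72.2 CPM to 89.4 and 90.6 CPM with Sox10 and Foxd3 at 0. The part of any of these in the lower Chrng, Chrnd and Dok7 was not tested. Myog, a regulator of the subunit genes, stood at 277 and 297 CPM under DMSO and 289 and 287 CPM under 4-PBA.

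By the distance between log2 CPM profiles over the 6 libraries, each centred on its own mean, the 5 genes nearest to Chrng among 12796 with a mean of at least 1 CPM were Atp2a1 (distance 0.247), Tnnt1 (0.252), Gm36377 (0.258), Itgb1bp2 (0.268) and Myom1 (0.278). Atp2a1 encodes the calcium pump of fast muscle, Tnnt1 slow troponin T and Myom1 an M-band protein. Their log2 fold changes between DMSO and day 0 lay between 4.78 and 5.08, and those between 4-PBA and DMSO between -0.34 and -0.17, smaller than that of Chrng. The 5 genes nearest to Musk were St3gal3 (0.0483), Bsdc1 (0.0526), Kctd7 (0.0591), Lypd6 (0.0654) and Atf6 (0.0669). No such genes are given for Chrne, which was not tested.

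Other genes of the junction were taken from 7 lists with 86 symbols, of which 85 were in the table and 73 were tested. With DMSO, 40 were called higher and 21 lower than at day 0, or 83.6% of those tested beside 66.3% of all tested genes (33.8% higher and 32.6% lower), and the median log2 fold change was 0.21. With 4-PBA against day 0, 39 were higher and 21 lower, or 82.2% beside 65.6% of all tested genes (median 0.20). Between 4-PBA and DMSO, 1 was higher and 10 were lower, 15.1% of those tested beside 4.90% of all tested genes (2.13% higher and 2.78% lower), with a median of -0.043 beside 0.0021 over all tested genes. All tested genes include many at low counts. A stricter filter, at a mean of 1 CPM and 10 counts in every library of a group, left 12796 genes. Of these, 10083 were called between DMSO and day 0 and 981 between 4-PBA and DMSO.

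**Figure D4:**
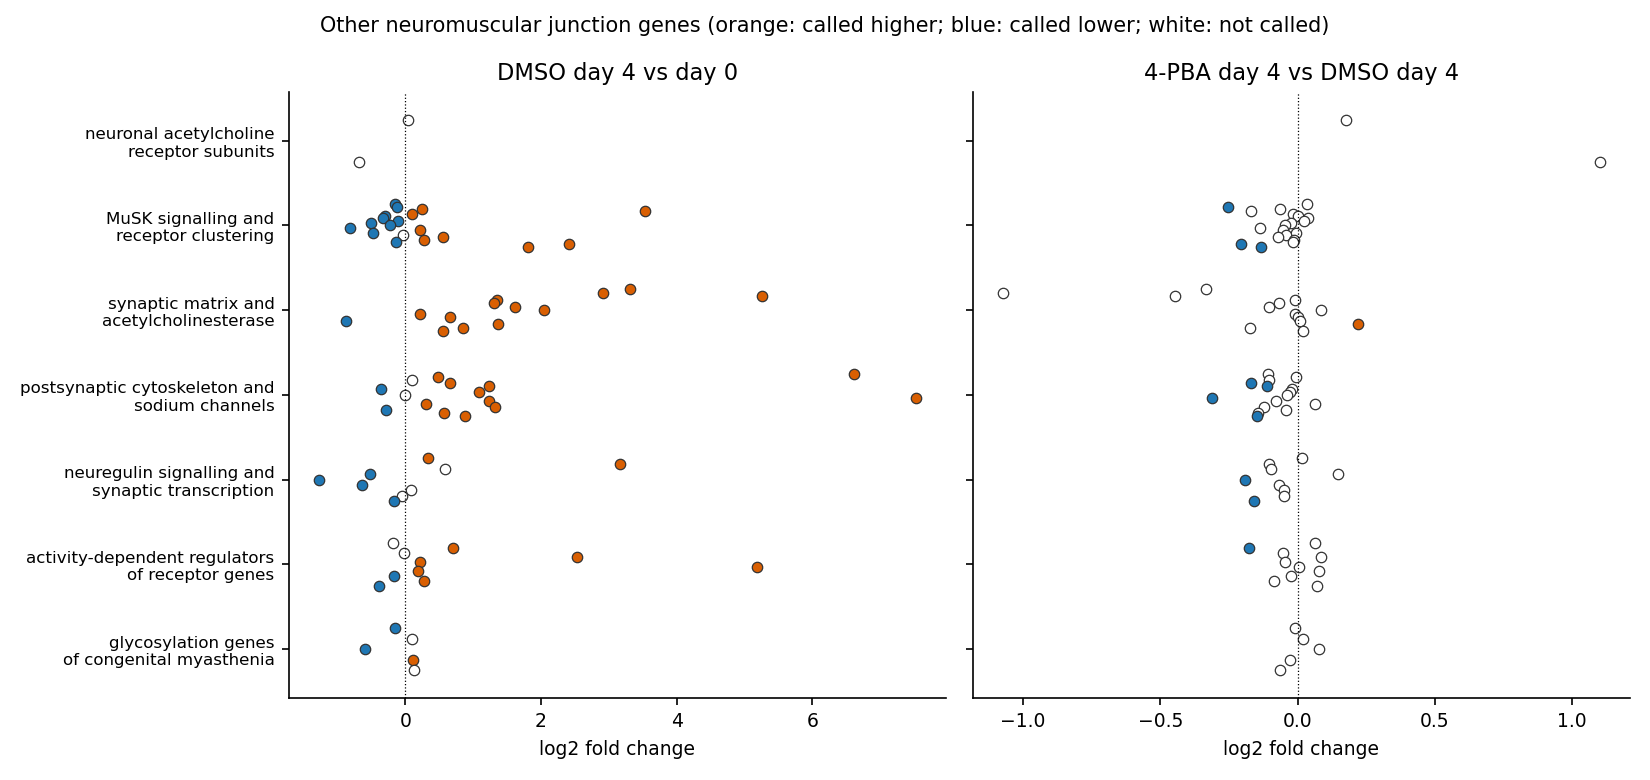
Log2 fold changes of the 73 tested genes in 7 lists of junction genes, 1 point per gene; left, DMSO day 4 against day 0; right, 4-PBA against DMSO at day 4, on a different scale. In the right panel 10 called genes lie below 0 and 1, Nid2, lies above.

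The neuronal acetylcholine receptor subunit genes were nearly silent. Of 11, only Chrnb2 and Chrnb4 passed the filter, Chrnb2 at 0.726 to 1.03 CPM per library, and Chrnb4 at no more than 13 counts, and neither was called in any comparison. Each of the other 9 had at most 8 counts in any library.

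In the synaptic matrix and acetylcholinesterase list, 12 of 13 tested genes were higher under DMSO and 1 lower (100% called beside 66.3% of all tested genes). The 3 with the smallest adjusted p-values were the perlecan gene Hspg2 (log2 fold change 1.30, SE 0.0265, adjusted p 1.65e-30), the laminin gene Lama2 (1.62, SE 0.0358, adjusted p 1.88e-29) and the dystroglycan gene Dag1 (1.35, SE 0.0304, adjusted p 2.81e-29). Ache and Colq, which encode the enzyme that clears acetylcholine and its collagen tail, were picked out after their values were seen. Colq had 2 and 19 counts at day 0 and 420 and 513 under DMSO (log2 fold change 5.26, SE 0.283, adjusted p 2.65e-14). Ache was low throughout, at 4 and 10 counts at day 0, 106 and 52 under DMSO and 50 and 66 under 4-PBA. Its rise under DMSO was called (log2 fold change 3.31, SE 0.479, adjusted p 3.80e-07), although the DMSO libraries differed from each other.

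The cytoskeletal and sodium channel list had 11 of 15 tested genes higher under DMSO and 2 lower (86.7% called beside 66.3%). Scn4a, the sodium channel that carries the muscle action potential, went from 4 and 13 counts at day 0 to 1686 and 1974 under DMSO (log2 fold change 7.52, SE 0.159, adjusted p 4.80e-30), with values of 7.15 to 8.31 when 1 library was omitted. Actn2, a Z-disc actinin, and Macf1, a cytoskeletal linker, changed by 6.61 (SE 0.151) and 1.24 (SE 0.0268) on the log2 scale.

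Genes that relay the MuSK signal moved both ways: 8 of 19 were higher under DMSO and 10 lower (94.7% called beside 66.3%). The median log2 fold change of this list was -0.10. The genes named here, taken by smallest adjusted p-value, were among those higher and do not stand for the list. They were Sorbs2 (log2 fold change 1.81, SE 0.0379, adjusted p 6.68e-26), an adaptor of the actin cytoskeleton, and Prkar1a (0.56, SE 0.0284, adjusted p 7.32e-19), a regulatory subunit of protein kinase A.

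In the neuregulin list 2 of 9 tested genes were higher under DMSO and 4 lower, a share of 66.7% called that is near the 66.3% of all tested genes. Erbb3, a neuregulin receptor, rose from 10.3 and 8.29 CPM to 82.0 and 83.3 CPM (log2 fold change 3.17, SE 0.0649, adjusted p 2.97e-25). The Ets factor Etv4 fell by 1.27 (SE 0.044, adjusted p 9.68e-24) and the Ets repressor Erf fell by 0.52 (SE 0.0477, adjusted p 1.76e-11) on the log2 scale.

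Of the activity-dependent regulators, 6 of 10 tested genes were higher under DMSO and 2 lower (80.0% called beside 66.3%). Besides Myog (log2 fold change 5.19, SE 0.046, adjusted p 3.18e-41), the class II histone deacetylase genes Hdac9 (2.53, SE 0.0521, adjusted p 5.29e-30) and Hdac4 (0.70, SE 0.0514, adjusted p 2.57e-14) had the smallest adjusted p-values. Of the 5 glycosylation genes of congenital myasthenia, Gfpt1 was called higher (0.12, adjusted p 0.0102) and Dpagt1 (-0.60, adjusted p 8.39e-11) and Alg14 (-0.16, adjusted p 0.0441) lower, so that 60.0% were called beside 66.3% of all tested genes. Gfpt1 stood at 0.073 without day 0 replicate 1 (adjusted p 0.221) and was called in the other 13 alternatives tested at 0.05. The Alg14 call was lost in 6 of 14 such alternatives. It stood at -0.094 without DMSO replicate 2 (adjusted p 0.295) and -0.11 without day 0 replicate 1 (0.270), and its adjusted p was 0.0523 with limma-voom, 0.119 with DESeq2 and 0.0644 with a stricter filter.

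With 4-PBA against day 0 the genes with the smallest adjusted p-values were mostly the same. They differed in Hsp90ab1, a chaperone (-0.48, SE 0.0258, adjusted p 4.25e-18), Nid2, a nidogen of the basement membrane (1.59, SE 0.0342, adjusted p 8.28e-30), and the Ets factor Etv5 (-0.70, SE 0.0766, adjusted p 4.76e-10). The means of these genes moved the same way under DMSO. Hsp90ab1 averaged 3351 CPM at day 0, 2412 under DMSO and 2405 under 4-PBA. In the same order Etv5 averaged 24.0, 15.4 and 14.7 CPM, and Nid2 86.1, 222 and 259 CPM. Alg14 was lower (-0.17, adjusted p 0.0357), but stood at -0.072 without 4-PBA replicate 1 (adjusted p 0.487), -0.26 without 4-PBA replicate 2 and -0.12 without day 0 replicate 1 (adjusted p 0.240). Its call was also lost with DESeq2 (adjusted p 0.106).

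Between 4-PBA and DMSO, 11 of these 73 genes were called. Nid2 was higher under 4-PBA, at 261 and 257 CPM against 218 and 227 CPM (log2 fold change 0.22, SE 0.0325, adjusted p 2.66e-05). Among those lower were the kinase gene Abl2 (-0.25, adjusted p 7.79e-04) and Sorbs2 (-0.13, adjusted p 0.0243) of the MuSK list, and Etv4 (-0.19, adjusted p 0.00881), the transcription factor gene Sp1 (-0.16, adjusted p 0.0125) and Hdac4 (-0.18, adjusted p 0.0301) among the regulators. The postsynaptic cytoskeleton list had 4 lower: Utrn, the synaptic relative of dystrophin (-0.15, adjusted p 0.00144), Dtna, a dystrobrevin (-0.17, adjusted p 0.0112), Macf1 (-0.11, adjusted p 0.00757) and Scn4a (-0.31, adjusted p 0.00756).

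Many of these 11 calls were lost when a library was left out, while Abl2 and Nid2 were called in every alternative. Without 4-PBA replicate 2, Abl2 and Nid2 were the 2 of the 11 still called, and without 4-PBA replicate 1 there were 5, among them Abl2, Nid2, Dtna and Sp1, while all tested genes gave 295 and 341 calls in those fits against 855. Some values hardly moved where the call was lost: without 4-PBA replicate 1 or 2, Utrn stood at -0.14 and -0.15, Macf1 at -0.11 and -0.11, Hdac4 at -0.18 and -0.18, and Scn4a at -0.33 and -0.29. Without DMSO replicate 1 there were 9, and the values were -0.17 for Abl2, -0.12 for Etv4 and -0.10 for Sp1. Without DMSO replicate 2 there were 8, and Sorbs2 stood at -0.067. Chrng, Chrnd and Dok7 remained called in each of these fits.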

How the data were processed

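Libraries were directional cDNA libraries from DNase-treated total RNA, per the labels' protocols. The deposited values are raw counts per gene symbol, not normalised or pooled, with 1 column per library. Counts were made on build GRCm39, per the submitters' processing notes. The aligner, counter, annotation, filters and strand setting are not given in the sources used here. Counts of the whole table were fitted with edgeR 4.0.16 in R 4.3.3 (filterByExpr, TMM, 1 mean per group over 6 libraries, robust glmQLFit), with Benjamini-Hochberg adjustment over 17433 genes and calls under 0.05. edgeR estimated a biological coefficient of variation of 3.74% between replicate libraries. SEs are the log2 fold change divided by the square root of F, and 95% intervals use the fit's degrees of freedom. CPM use TMM-scaled totals, and exon lengths come from GENCODE M21 (GRCm38).

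The members and gene lists were chosen with earlier results of these data known. Named genes were the members; pathway genes called between 4-PBA and DMSO; the 3 genes per list and day 0 comparison with the smallest adjusted p-value and at least 1 CPM; the 5 genes nearest to Chrng, Chrne and Musk; and cell type markers. Alternatives were DESeq2 1.42.0 (size factors and Wald test), unscaled library sizes, a filter at 1 count, a stricter filter, limma-voom (limma 3.58.1), fits of 4 libraries, a replicate block, a threshold of 0.01 and leaving out each library. Scripts were tested on simulated data. Figures used Python 3.11.15 and matplotlib 3.10.9. Nrg1 was not analysed here, and 1 junction gene that the naming rule selects is counted but not reported here by name.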

Additional observations from a re-analysis of the deposited data

How the results depend on the processing

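Of the alternative values of the members' log2 fold changes, 0 reversed, 377 kept their side of the threshold and 1 did not, which was Lrp4 between 4-PBA and DMSO without a filter, given above. For the named junction genes 613 alternative values kept their side of the threshold, 31 no longer passed it and none reversed. The 9 tested members were called above day 0 in every alternative, in both comparisons. Between 4-PBA and DMSO, Chrng, Chrnd and Dok7 were called in every alternative, and without a filter Lrp4 was called as well. The count of 11 junction genes called between 4-PBA and DMSO was 7 with a threshold of 0.01 and between 2 and 14 when 1 library was left out. With DMSO, the Chrne share of 0.152% was 0.106% with the longest transcript and 0.0619% without length scaling. Over all genes, leaving out 1 4-PBA library lowered the 855 calls between 4-PBA and DMSO to 341 or 295. Replicate numbers are shared between groups, and the deviations of same-numbered libraries correlated at -0.0098, -0.059 and -0.067. These values show no strong shared deviation, but they cannot tell whether the numbers pair the samples, which the labels do not say. With the replicate block 9, 9 and 3 members, 60, 60 and 11 junction genes and 768 of all genes between 4-PBA and DMSO were called. Alg14 between DMSO and day 0 then had an adjusted p of 0.0555 in edgeR. Depth limits Chrne, Ache and most neuronal subunit genes. Leaving out a library leaves 1 in its group, which is assumed to vary like the others.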
